A study of Mus musculus with 21 samples.

Results

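The 35 genes described here encode the proteins of the cytosolic ribosome and a few close relatives of them. They were taken by name: every gene of the array whose symbol begins with Rpl or Rps and a digit, together with Rplp0, Rplp1, Rplp2 and Rpsa, where a probe set named that gene alone, leaving out pseudogenes and the Rps6k kinases. This gave 35 of the 8251 genes tested, 17 named Rpl and 18 named Rps. By role, 15 encode proteins of the large (60S) subunit and 16 proteins of the small (40S) subunit. Another 3 are paralogs of a ribosomal protein (Rpl39l, Rps27l and Rps4l). The last, Rpl7l1, shares the name but is the homologue of the yeast factor Rlp7, which helps to assemble the 60S subunit and is not part of the finished ribosome. The symbol rule used no measured value. For 9 members the set used is marked as a family or mixed set, although it is named for that gene alone. These are Rpl32, Rpl38, Rpl41, Rpl7, Rps13, Rps24, Rps27l, Rps28 and Rps4l, and their values may not come from that gene alone.

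A cytosolic ribosome is made of a 40S subunit, which decodes the mRNA, and a 60S subunit, which joins the amino acids. The proteins of both are made in equal number from mRNAs that are among the most abundant in growing cells. In mammals these mRNAs begin with a run of pyrimidines (the TOP motif), through which the kinase mTORC1 controls their translation, so their use can change with no change in their amount. Assembly in the nucleolus needs a separate set of factors, many of them targets of the transcription factor MYC, and RNA polymerase I makes the precursor of most of the rRNA.

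B16-F10 is a pigmented melanoma line from C57BL/6J mice. Cells were grown in RPMI medium with 10% fetal bovine serum, and RNA was measured on 21 Affymetrix U74Av2 arrays. In the chamber set, 3 arrays came from cells kept for 24 h at 1% oxygen in a sealed Billups-Rothenberg chamber, with 2 control arrays at 21% oxygen. Experiments 1 and 2 each held 3 arrays from cells kept for 24 h at 1% oxygen in a flow-regulated incubator and 2 control arrays at 21% oxygen. Experiment 3 held 2 control arrays at 21% oxygen, 2 arrays after 24 h with 100 µM cobalt chloride (CoCl2) and 2 arrays after 24 h with 200 µM CoCl2, which the submitters used to mimic hypoxia. Cobalt blocks the prolyl hydroxylases that mark the hypoxia-inducible factors for degradation. The labels do not say how long controls were kept, and they call the arrays of a group biological replicates without saying that each came from a culture of its own. The p-values here therefore measure the spread between these arrays only.

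All values are log2 RMA values as the authors deposited them, so a log2 difference of 1 is a factor of 2 and each difference is treated minus the controls of the same set. A gene counts as called where limma gave an adjusted p under 0.05, with the adjustment over all 8251 genes. The label of the cells was checked on melanocyte markers. All 8 measured had a mean above the median of all genes. In the mean of the hypoxia sets 1 was called higher and 3 lower, against 12.6% and 19.5% of all genes. In the mean of both CoCl2 doses all 8 were called lower, against 23.0% of all genes. The sum of their log2 values was 73.27 to 74.81 in the controls of experiment 3, 60.55 to 62.28 at 100 µM and 51.44 to 52.59 at 200 µM. A measure of RNA quality also moved in experiment 3. The 3′ signal of the control gene Actb exceeded its 5′ signal by 0.147 to 0.496 (log2) on the 15 arrays of the hypoxia sets, against 0.50 to 2.36 on the 6 arrays of experiment 3. Degraded RNA, or RNA copied only in part, widens that gap.

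Ribosomal protein probe sets were mostly bright. The group mean over all arrays was at or above the median of the 8251 genes for 23 members and below it for 12 (Rpl32, Rpl35a, Rpl38, Rpl39, Rpl39l, Rpl7l1, Rps14, Rps15, Rps20, Rps27l, Rps29 and Rps4l). An array does not allow levels of different probe sets to be compared, and a low value for an abundant mRNA such as Rpl39 or Rps20 speaks of the probe set. Rpl41, the smallest ribosomal protein, had a mean of 13.0, close to the highest value of the whole table, which leaves little room to measure a rise. 

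At 1% oxygen few of the ribosomal protein transcripts were called, and their differences from the controls were small. Over the mean of the 3 hypoxia sets, 2 members were called higher and 1 lower, 8.57% of the 35, against 32.0% of all genes tested. The 3 were Rpl22, Rpl13a and Rpl7l1, and 32 of 35 members lay within 0.25 of 0 on the log2 scale, against 74.6% of all genes. The median log2 difference of the members was 0.02, and that of all genes 0.01. The standard deviation of the differences over the members was 0.166, and over all genes 0.343. Among the 32 members not called, the differences ran from -0.12 (Rps27l) to 0.23 (Rpl10a), and their 95% intervals reached from -0.31 for Rpl8 to 0.41 for Rpl10a, so a change of 0.5 in either direction lay outside every one of these intervals. Without array 1 or array 2 at 100 µM CoCl2, each of which enters the common estimate of spread, 5 members were called. In RNA from bulk cultures, a change in the mixture of cells and a change in RNA per cell cannot be told apart.

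**Figure D1:**
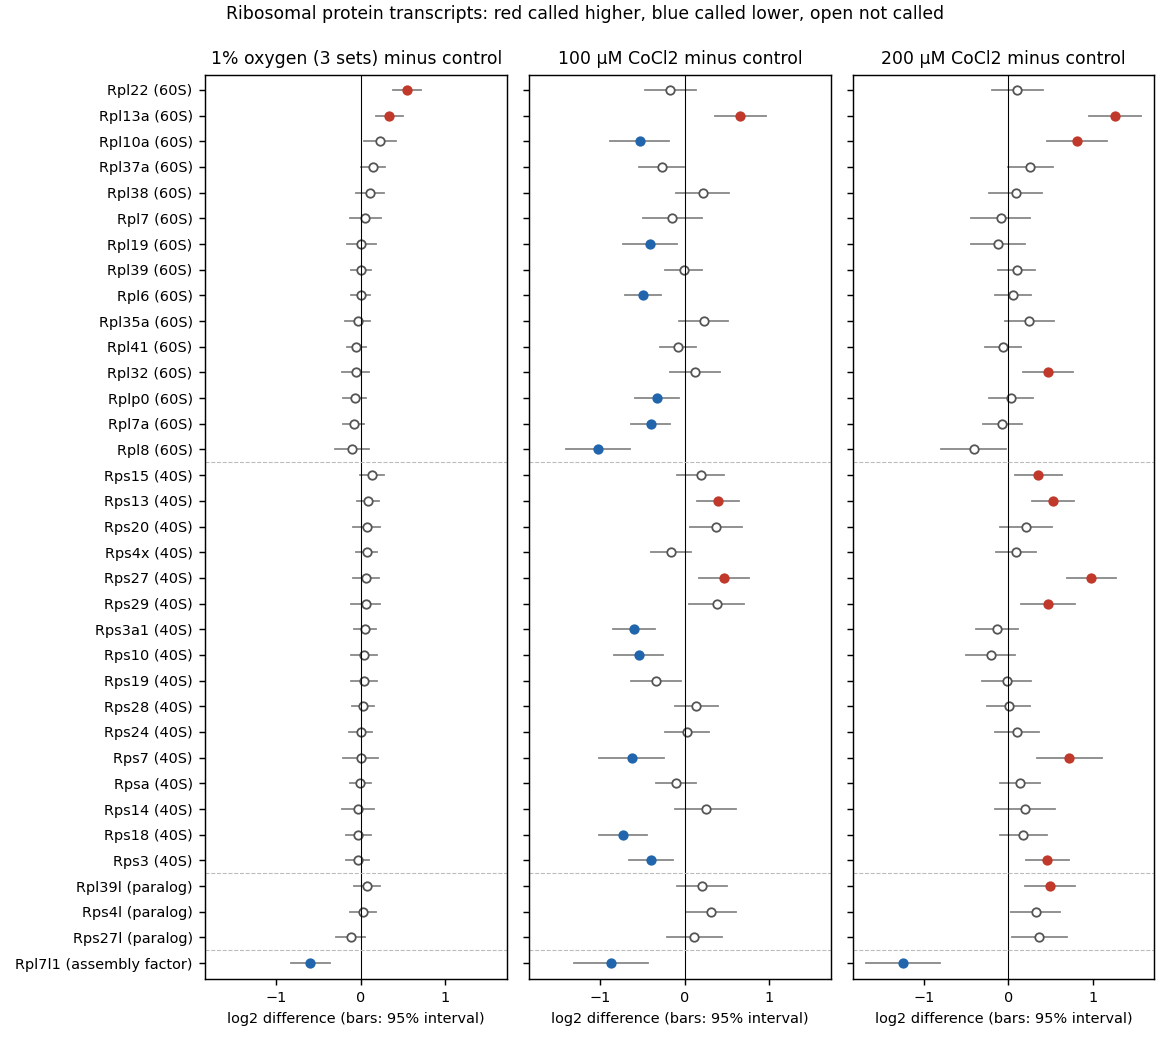
Log2 difference from the controls (horizontal axis, with 95% intervals as bars) for the 35 genes, ordered by role and by the difference at 1% oxygen; filled points passed an adjusted p under 0.05 in limma (red higher, blue lower). The left panel, the mean of 3 hypoxia sets, is narrow around 0 with 3 filled points, while the panels at 100 µM and 200 µM CoCl2 have 15 and 11 filled points and more blue at the lower dose.

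Rpl22 encodes a 60S protein near the exit of the peptide tunnel that mice need for the development of αβ T cells. Its log2 RMA values were 7.12, 7.06 and 7.09 at 1% oxygen in the chamber, against 6.75 and 6.68 in its controls. They were 7.27, 7.37 and 6.95 at 1% oxygen in experiment 1, against 6.52 and 6.51 in its controls. In experiment 2 they were 6.87, 6.91 and 6.84 at 1% oxygen, against 6.22 and 6.36 in its controls. Every hypoxic array was above both controls of its own set. The mean log2 difference was 0.55 ± 0.08 (SE; 95% interval 0.39 to 0.71; adjusted p = 7.1e-06, limma), or 1.46-fold, and it was called in the chamber (0.38), in experiment 1 (0.68) and in experiment 2 (0.58). In the chamber alone the adjusted p was 0.047 and the call was lost when any 1 of 15 of the 21 arrays was left out, while experiment 2 lost it without control array 1. The array holds another probe set for Rpl22, which showed a log2 difference of 0.03 ± 0.07 (SE) over the 3 sets and was not called (adjusted p = 0.83). The mean of both probe sets was called over the 3 sets (0.29), in the chamber and in experiment 1, and was not called in experiment 2 (0.24, adjusted p = 0.079, limma).

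Rpl13a encodes a 60S surface protein which, in human monocytic cells, can leave the ribosome to join the GAIT complex and silence inflammatory mRNAs. It is also often used as a reference gene in PCR. Its log2 RMA values were 8.28, 8.16 and 8.18 at 1% oxygen in the chamber, against 8.23 and 8.23 in its controls, and these overlap. They were 8.48, 8.72 and 8.30 at 1% oxygen in experiment 1, against 7.82 and 7.90 in its controls. In experiment 2 they were 8.27, 8.09 and 8.45 at 1% oxygen, against 7.86 and 7.89 in its controls. All hypoxic arrays of both incubator experiments lay above their controls, and those of the chamber did not. The mean log2 difference was 0.34 ± 0.08 (SE; adjusted p = 0.0016, limma), 1.26-fold, made up of -0.03 in the chamber, 0.64 in experiment 1 (called) and 0.39 in experiment 2 (adjusted p = 0.051, not called).

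Rpl7l1, the assembly factor homologue, was the only gene of the 35 called lower. Its log2 RMA values were 5.24, 5.05 and 4.99 at 1% oxygen in the chamber, against 5.96 and 6.01 in its controls. They were 5.10, 5.32 and 4.89 at 1% oxygen in experiment 1, against 5.58 and 5.75 in its controls. In experiment 2 they were 5.52, 5.19 and 5.12 at 1% oxygen, against 5.54 and 5.69 in its controls. Every hypoxic array was below both controls of its own set, by the smallest margin in experiment 2. The mean log2 difference was -0.60 ± 0.11 (SE; adjusted p = 0.00017, limma), a 1.52-fold decrease. It was called in the chamber (-0.90) and in experiment 1 (-0.57, adjusted p = 0.043) and was -0.34 in experiment 2 (not called). In experiment 1 the call was lost when any 1 of 13 of the 21 arrays was left out.

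**Figure D2:**
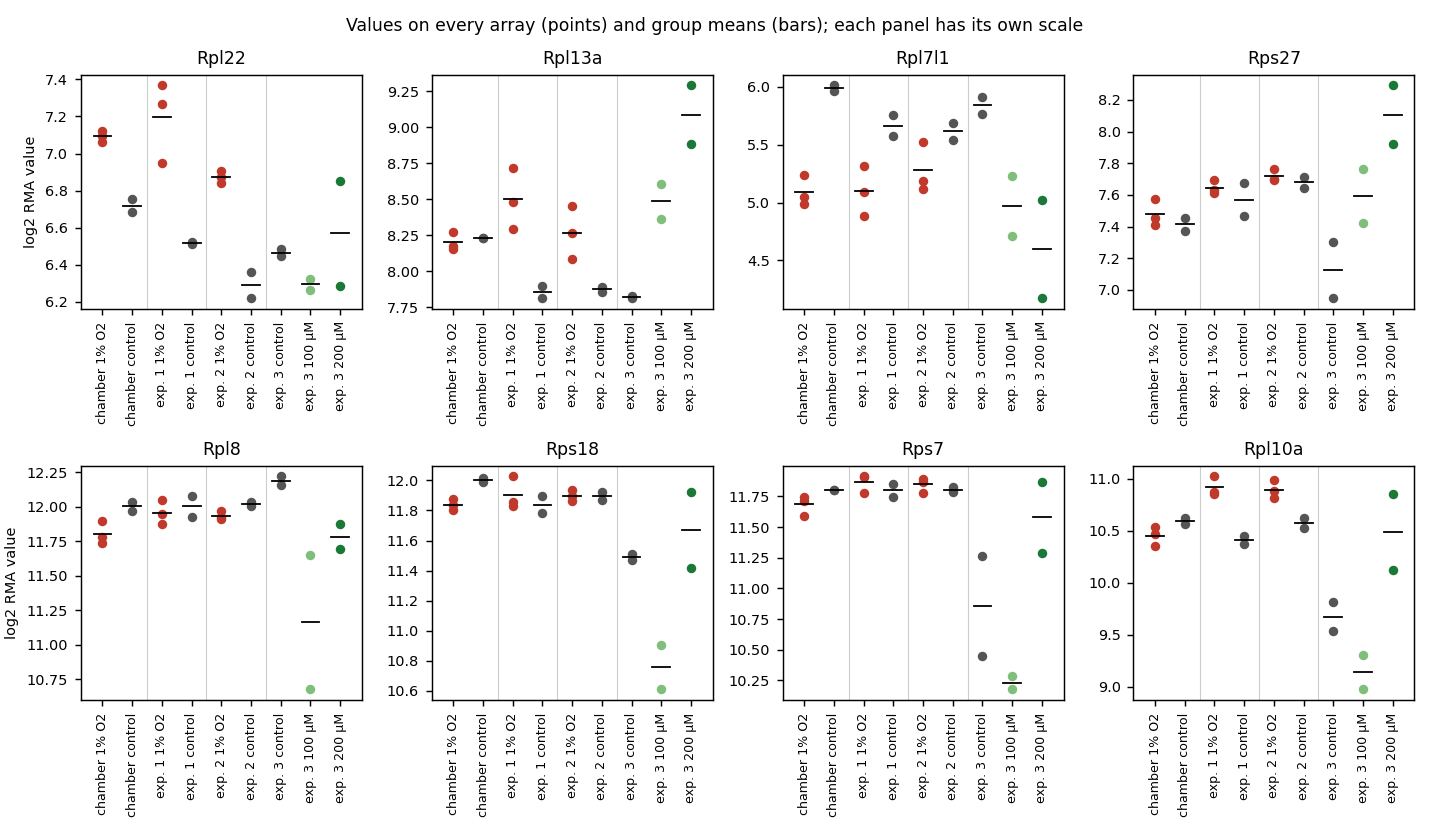
Log2 RMA value (vertical axis, a scale of its own in each panel) of 8 genes on every array by group; points are arrays and short bars group means, red 1% oxygen, grey controls at 21% oxygen, light green 100 µM and dark green 200 µM CoCl2. Rpl22 is above its controls in all 3 hypoxia sets and Rpl7l1 below them, while Rps7, Rps18 and Rpl10a have their lowest group mean at 100 µM.

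Set by set, the members called were 60S proteins and Rpl7l1. In the chamber 1 member was called higher (Rpl22) and 1 lower (Rpl7l1), against 23.0% of all genes. In experiment 1, 4 were called higher and 1 lower, against 18.3% of all genes. Beside Rpl22 and Rpl13a these were Rpl10a, which forms the L1 stalk that guides spent tRNA off the ribosome, at 0.50 ± 0.15, and Rpl37a, a zinc finger protein of the 60S subunit, at 0.40 ± 0.12 (SE; adjusted p = 0.025 and 0.020, limma). Rpl10a and Rpl37a lost their call without either control array or without array 2 at 1% oxygen of that experiment, and Rpl37a also without array 1 at 1% oxygen, so 2 members were called without either control and 3 without array 1 or 2 at 1% oxygen. In experiment 2 only Rpl22 was called, against 15.3% of all genes. None of the 16 proteins of the 40S subunit was called in any of the 3 sets or in their mean, where their differences ran from -0.04 to 0.13. At an unadjusted p under 0.05, too, 0 of the 16 passed in limma, against 38.9% of all genes. They include Rpsa, the laminin receptor precursor that sits on the 40S platform (-0.01 ± 0.06), Rps3, which lines the mRNA entry (-0.04 ± 0.07), and Rps19, the gene most often mutated in Diamond-Blackfan anaemia (0.04 ± 0.07, SE). Rplp0, the base of the 60S stalk that recruits elongation factors, was also not called (-0.07 ± 0.07, SE).

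No member was called different between the hypoxia sets. The chamber difference minus the mean of both incubator differences was not called for any of the 35 in limma (0 members, against 2.16% of all genes), and 3 passed at an unadjusted p under 0.05, against 21.0% of all genes. Those 3 were Rpl13a (-0.55, adjusted p = 0.081), Rpl10a (-0.55, adjusted p = 0.13) and Rpl37a (-0.42, adjusted p = 0.12), all lower in the chamber comparison. With any 1 of the 4 CoCl2 arrays left out, which enter the common estimate of spread, 2 members were called lower in this comparison. Between experiments 1 and 2, limma called 0 members and 0 passed at an unadjusted p under 0.05, against 0.327% and 8.73% of all genes. Of the 23 brighter members, 20 had a lower difference in the chamber than in the incubator experiments, with a median of -0.17 for the difference, against 0.05 for all genes.

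Ribosome biogenesis factors and the proteins of the mitochondrial ribosome had many members lower at 1% oxygen, where 12.6% of all genes were called higher and 19.5% lower. Of 43 ribosome biogenesis factors measured, 1 was called higher and 29 lower, with a median log2 difference of -0.46, against 0.01 for all genes. The sets were unequal. In the chamber 0 were called higher and 35 lower, in experiment 1, 3 and 10, and in experiment 2, 0 and 20. Their medians were -0.774, -0.165 and -0.401 in that order. Of all genes, 15.1%, 10.7% and 7.79% were called lower in these sets. In chamber minus incubator 0 factors were called higher and 12 lower, against 1.78% of all genes called lower. In the mean of the 3 sets the largest changes among the factors were in Bop1 (-1.27 ± 0.09), which processes the RNA of the 60S subunit, in Nop56 (-1.16 ± 0.07), the core of the small nucleolar RNPs that methylate rRNA, and in Bysl (-0.99 ± 0.08, SE), which is needed to make the 40S subunit. Of 14 genes of the RNA polymerase I machinery, 0 were called higher and 5 lower, a total share near that of all genes, among them Taf1d (-0.69), Polr1a (-0.63) and Polr1e (-0.62). Of 61 mitochondrial ribosomal proteins, 1 was called higher and 40 lower, with a median of -0.29. In the chamber 1 was called higher and 38 lower, in experiment 1, 0 and 12, and in experiment 2, 1 and 9. In the mean of the 3 sets Mrpl12 (-0.73), Mrps11 (-0.69) and Mrpl37 (-0.69) changed the most. Of 13 further genes with TOP mRNAs, 4 were called higher and 0 lower, again a total share near that of all genes, among them the translation initiation subunit Eif3e (0.42), the splicing factor Hnrnpa1 (0.36) and the elongation factor Eef2 (0.29). Of 20 regulators of mTORC1 and MYC, 5 were called higher and 6 lower. Ddit4, an inhibitor of mTORC1, was higher by 2.01 ± 0.09, Mxi1, an antagonist of MYC, by 1.94 ± 0.10 and Mxd4, another antagonist, by 1.03 ± 0.07 (SE; limma). These lists were written with earlier results of the same arrays known, so their counts are a description.

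**Figure D3:**
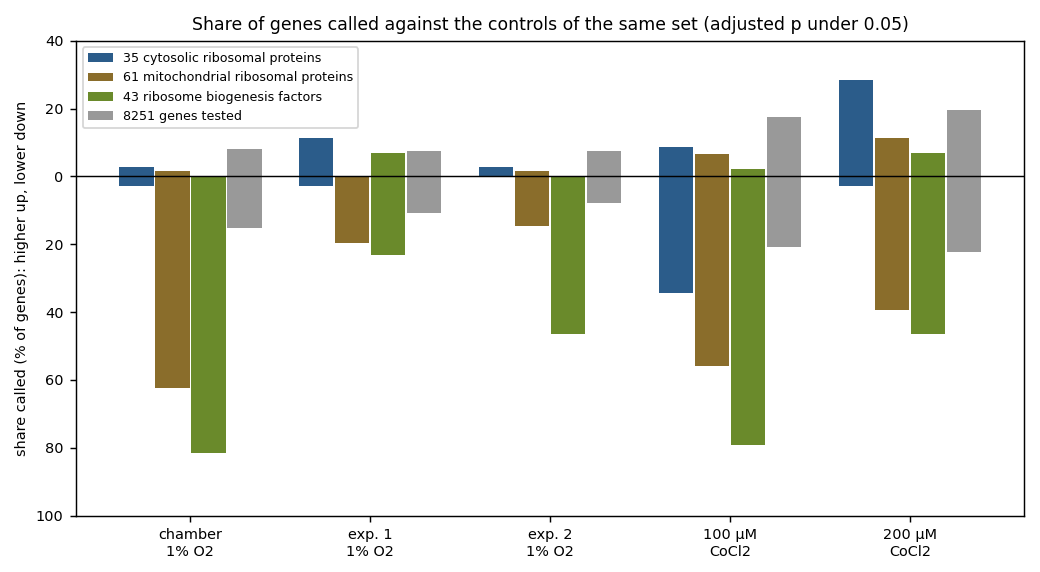
Share of genes called in limma at an adjusted p under 0.05 (vertical axis, percent; higher drawn upward, lower downward) in each treatment against the controls of the same set, for 35 cytosolic ribosomal proteins, 61 mitochondrial ribosomal proteins, 43 ribosome biogenesis factors and all 8251 genes. In the chamber 1 of 35 cytosolic genes was called lower, beside 38 of 61 mitochondrial genes and 35 of 43 biogenesis factors; the bar of the cytosolic genes points mostly down at 100 µM CoCl2 and mostly up at 200 µM.

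Ribosomal protein genes are known for compact start sites with binding sites of ETS family factors, and hypoxia-inducible factors bind a short core. The promoters of some members that were called are therefore shown. Others that were called and have a window, such as Rpl10a, Rps27, Rps3, Rplp0 and Rpl7a, are not printed. Windows run from 200 bases before to 10 bases after the start, as RefSeq gives them on GRCm38.p6, and 28 of 35 members matched the table. Capitals mark the ETS core CCGGAA and the hypoxia response cores ACGTG and GCGTG, each on either strand; CACGTG, which opens the Rpl13a window, holds ACGTG on both strands. The sequences follow, 5′ to 3′ along the gene.
Rpl13a, chr7:45128736-45128945, minus strand: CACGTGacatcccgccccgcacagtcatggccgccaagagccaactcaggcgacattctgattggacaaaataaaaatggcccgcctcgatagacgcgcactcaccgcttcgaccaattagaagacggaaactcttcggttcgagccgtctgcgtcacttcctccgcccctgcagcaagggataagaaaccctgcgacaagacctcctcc
Rpl22, chr4:152325526-152325735, plus strand: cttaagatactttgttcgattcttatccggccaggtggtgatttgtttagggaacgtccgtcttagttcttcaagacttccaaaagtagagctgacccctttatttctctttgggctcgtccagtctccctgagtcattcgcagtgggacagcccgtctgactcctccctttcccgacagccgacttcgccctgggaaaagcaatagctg
Rpl7l1, chr17:46782647-46782856, minus strand: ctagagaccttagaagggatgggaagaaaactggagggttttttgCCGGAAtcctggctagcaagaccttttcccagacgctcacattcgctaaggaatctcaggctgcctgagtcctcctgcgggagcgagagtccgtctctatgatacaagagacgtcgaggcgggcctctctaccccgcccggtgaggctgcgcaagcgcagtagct
Rps7, chr12:28635944-28636153, minus strand: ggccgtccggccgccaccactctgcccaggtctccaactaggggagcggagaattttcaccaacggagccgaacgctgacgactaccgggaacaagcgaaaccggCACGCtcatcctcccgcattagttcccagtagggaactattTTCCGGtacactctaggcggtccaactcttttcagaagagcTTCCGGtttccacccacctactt
Rps18, chr17:33955656-33955865, minus strand: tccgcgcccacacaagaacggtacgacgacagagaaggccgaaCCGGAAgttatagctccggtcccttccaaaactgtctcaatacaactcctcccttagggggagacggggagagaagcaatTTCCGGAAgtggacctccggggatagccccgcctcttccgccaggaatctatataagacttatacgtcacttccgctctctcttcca

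Over the full windows of 300 bases (250 before and 50 after the start), the ETS core stood in 17 of 37 member windows (45.9%), against 14.9% of all 32851 windows of the table. A hypoxia response core stood in 26 of 37 (70.3%), against 43.8% of all windows. The letters CTTTC or CTTTT on either strand stood in 33 of 37 (89.2%), against 78.0% of all windows. They were counted anywhere in the window, so this is not a count of TOP starts. The Rpl22 window above, and the window of its other listed start, held neither core. The windows of Rps7 and Rps18, a pair called lower at 100 µM CoCl2 below, held 2 and 5 matches to the ETS core. Among the others called lower at that dose, Rpl7l1 held 2 matches, Rpl6, Rps3, Rps3a1 and Rps10 held 1, and Rplp0 and Rpl7a held 0. The windows of Rpl19 held 1 and 0, and those of Rpl10a 0 and 1. Rpl8 had no listed window. Among members not called lower at that dose, Rpl39l held 4 matches, Rpsa held 3, and Rps27, Rpl38, Rpl39 and Rpl41 held 1. Rpl13a, Rpl37a, Rps13, Rps15, Rps28 and Rps4x held 0, as did every window of Rpl22, Rps24 and Rpl35a. The windows of Rps19 held 0, 0 and 1, and those of Rps27l 1 and 0. A link between these counts and the lower values was not tested. A match is a run of letters and not a shown binding site, and some windows of the same gene overlap.

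In CoCl2 the called ribosomal protein transcripts were mostly lower at 100 µM and mostly higher at 200 µM. At 100 µM, 3 members were called higher and 12 lower, against 38.4% of all genes called in either direction. Of all genes, 17.6% were called higher and 20.7% lower. The median log2 difference of the members was -0.10, and that of all genes 0.10. At 200 µM, 10 were called higher and 1 lower, against 42.0% of all genes, with a median of 0.14 for the members and 0.11 for all genes (19.7% of all genes were called higher). Without control array 1 of experiment 3, 7 members were called at 200 µM. Markers of other cell types were called higher in the CoCl2 mean in 2 of 8 fibroblast, 2 of 7 leukocyte, 4 of 5 epithelial and 1 of 5 endothelial genes, against 23.3% of all genes, so that the epithelial list alone was well above that share; none was called lower, and 3, 2, 1 and 1 of each list had a mean above the median of all genes. The summed log2 value of the 7 leukocyte markers was 31.78 to 32.20 in the controls, 35.36 to 36.18 at 100 µM and 37.48 to 37.67 at 200 µM, most of it from Cd68 of macrophages, which was higher by 3.24 ± 0.20 (SE) in the CoCl2 mean. That of the 5 epithelial markers was 20.79 to 21.14, 22.21 to 23.46 and 22.81 to 22.83 in the same order. Over the mean of the 3 hypoxia sets, 2 leukocyte markers (Cd68 by 0.84) and 1 epithelial marker were called higher and no other marker of these lists was called; in the chamber alone 1 fibroblast marker was also called higher. The part of these markers in the results was not tested. Both doses were compared with the same 2 control arrays, so their differences are not independent of each other.

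The genes lower at 100 µM were spread over both subunits. On the 60S side they were Rpl8, Rpl10a, Rpl6, Rpl19, Rpl7a and Rplp0, on the 40S side Rps18, Rps7, Rps3a1, Rps10 and Rps3, and the twelfth was Rpl7l1. They were not spread evenly by brightness. Among the 23 members with means at or above the median of all genes, 11 were called lower and 3 higher, with a median difference of -0.325. Among the 12 with lower means, 1 was called lower and 0 higher, with a median of 0.213. Of all genes, 20.7% were called lower at this dose. The part of brightness in these differences was not tested. Rpl8 lies close to the centre where peptide bonds form. Its log2 RMA values were 12.22 and 12.16 in the controls, 10.68 and 11.65 at 100 µM, and 11.69 and 11.87 at 200 µM. Both arrays at 100 µM were below both controls, and array 1 was well below array 2. The log2 difference at 100 µM was -1.02 ± 0.18 (SE; adjusted p = 0.00016, limma), a 2.03-fold decrease, and it was -0.54 without array 1 at 100 µM and still called. At 200 µM it was -0.41 and not called.

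Rps18 is a protein of the 40S head next to the bridge with the 60S subunit. Its log2 RMA values were 11.47 and 11.51 in the controls, 10.91 and 10.61 at 100 µM, and 11.42 and 11.92 at 200 µM. Rps7, which can also bind MDM2 and so spare p53, had log2 RMA values of 10.45 and 11.27 in the controls, 10.28 and 10.18 at 100 µM, and 11.29 and 11.87 at 200 µM. In both genes the arrays at 100 µM were below all others of the experiment, by a clear gap for Rps18 and by a narrow one for Rps7, whose controls lie far apart. The log2 difference at 100 µM was -0.73 ± 0.14 for Rps18 and -0.63 ± 0.19 for Rps7 (SE; adjusted p = 0.00022 and 0.012, limma). At 200 µM Rps7 was higher than the controls by 0.72 ± 0.19, and Rps18 stood at 0.18 and was not called. Without array 1 of the controls, the difference of Rps7 at 200 µM was 0.31, and without array 2 at 200 µM it was 0.43, called in neither case. At 100 µM it was -0.22 and not called without array 2 of the controls.

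Rpl10a had log2 RMA values of 9.54 and 9.82 in the controls, 8.98 and 9.31 at 100 µM, and 10.12 and 10.86 at 200 µM. The 3 groups did not overlap, with 100 µM lowest and 200 µM highest. The log2 difference was -0.53 ± 0.17 at 100 µM and 0.81 ± 0.17 at 200 µM (SE; adjusted p = 0.017 and 0.00051, limma). With Rps3 and Rps7 it was 1 of 3 members called lower at 100 µM and higher at 200 µM. How many of all genes had this pattern was not counted. A further probe set of Rpl10a, which matches a sequence family, had differences of -0.21 and 0.22 at these doses and was called at neither. Rps3 had log2 RMA values of 11.21 and 11.31 in the controls, 10.86 and 10.87 at 100 µM, and 11.48 and 11.97 at 200 µM, again without overlap.

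The other members lower at 100 µM had smaller differences. Rps3a1, which joins the 40S platform and binds initiation factors, was lower by 0.60 (log2 difference -0.60 ± 0.12), and Rps10, a 40S head protein ubiquitinated when ribosomes collide, had -0.54 ± 0.14. Rpl6 had -0.49 ± 0.10 and Rpl7a, which binds the 60S rRNA early in assembly, -0.40 ± 0.11 (SE; limma). Rplp0 (-0.32, adjusted p = 0.047) and Rpl19 (-0.40, adjusted p = 0.043) were close to the threshold. None of these 6 was called at 200 µM.

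Rpl13a, Rps13 and Rps27 were called higher at both doses, a pattern that was not counted over all genes. Rpl13a had log2 RMA values of 7.83 and 7.82 in the controls, 8.37 and 8.61 at 100 µM, and 8.88 and 9.29 at 200 µM. The groups did not overlap and stood in the order of the dose. The log2 difference was 0.66 ± 0.15 at 100 µM and 1.26 ± 0.15 at 200 µM (SE; adjusted p = 0.0013 and 4.1e-07, limma), which is 1.58-fold and 2.40-fold. Rps27, a zinc finger protein of the 40S platform, had log2 RMA values of 6.95 and 7.30 in the controls, 7.76 and 7.42 at 100 µM, and 7.92 and 8.29 at 200 µM. The groups did not overlap, and both arrays at 200 µM were also above all 6 controls of the hypoxia sets, which lay between 7.38 and 7.71. Its log2 difference was 0.47 ± 0.14 at 100 µM and 0.98 ± 0.14 at 200 µM (SE; adjusted p = 0.013 and 6.5e-06, limma). At 100 µM it was 0.30 without array 1 of that dose and 0.29 without array 1 of the controls, and called in neither case. Rps13, a 40S protein facing the 60S subunit, had 7.46 and 7.39 in the controls, 8.03 and 7.61 at 100 µM, and 7.97 and 7.94 at 200 µM. Its log2 differences were 0.40 ± 0.12 and 0.53 ± 0.12 (SE), and at 100 µM the call was lost without array 1 of that dose (0.19) or array 2 of the controls (0.36). The set used for Rps13 is a family or mixed set.

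Higher at 200 µM alone, beside Rpl10a, Rps3 and Rps7, were Rpl32 (0.47), Rps29 (0.47), Rps15 (0.35) and the paralog Rpl39l (0.50). These 4 have mean values below the median of all genes, where a change is measured less surely, and the Rpl32 set is a family or mixed set. Rpl7l1 was called lower at both doses, with log2 RMA values of 5.92 and 5.77 in the controls, 4.71 and 5.23 at 100 µM, and 4.18 and 5.02 at 200 µM. All treated arrays were below both controls, and the ranges of the 2 doses overlap. Its log2 difference was -0.87 ± 0.21 at 100 µM and -1.24 ± 0.21 at 200 µM (SE; adjusted p = 0.0026 and 5.4e-05, limma). Without array 1 at 100 µM the difference at that dose was -0.61 and not called.

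The step between the doses was tested directly. At 200 µM against 100 µM, 11 members were called higher and 0 lower, against 16.7% of all genes called and 7.83% called higher, and 30 of 35 had a positive difference. The median step was 0.28 for the members and -0.02 for all genes. Without array 1 at 100 µM, 7 members were called. Rps7 (1.35 ± 0.19) and Rpl10a (1.35 ± 0.17) had the largest steps, and Rps18 (0.91 ± 0.14) and Rps3 (0.86 ± 0.12) followed (SE; adjusted p between 1.3e-05 and 8.1e-05, limma). The remaining 7 were Rpl8, Rpl13a, Rpl6, Rpl37a, Rps27, Rps3a1 and Rpl7a, with steps between 0.33 and 0.62. All 11 belong to the 23 members with means at or above the median of all genes. Of the 12 members with lower means, 0 were called in limma and 1 passed at an unadjusted p under 0.05, against 27.4% of all genes. Of the 43 ribosome biogenesis factors, 23 were also higher at 200 µM than at 100 µM and 0 were lower, with a median step of 0.44, although 20 of them were still called lower than the controls at 200 µM.

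The RNA quality measure moved with the dose pattern. In experiment 3 the controls had Actb 3′ minus 5′ signals of 1.41 and 1.62, the arrays at 100 µM of 2.36 and 2.16, and those at 200 µM of 1.47 and 0.50. The 23 brighter members had median log2 RMA values of 11.21 and 11.31 in the controls, 10.72 and 10.82 at 100 µM, and 11.39 and 11.44 at 200 µM, against 11.3 to 11.5 on the 15 arrays of the hypoxia sets. Both arrays at 100 µM had the widest Actb gap and the lowest ribosomal protein signal. The same gap for the control gene Gapdh did not follow this order: the controls had 2.21 and 0.92, the arrays at 100 µM 1.44 and 2.18, and those at 200 µM 0.45 and 0.12, so that control array 1 had the widest. With the Actb gap as a covariate in the fit, 4 members were called at 100 µM, 9 at 200 µM and 0 in the dose step. In that fit Rpl13a stayed called at 100 µM (0.95) and 200 µM (1.06), Rps27 at both (0.61 and 0.88) and Rpl8 at 100 µM (-0.78), while Rps18 (-0.44, adjusted p = 0.067) and Rps7 (-0.38, adjusted p = 0.32) at 100 µM were not. In the same fit 1727 of all 8251 genes were called at 100 µM, 3405 at 200 µM and 154 in the dose step (1376 without the covariate), and the median step of the members was 0.20. The gap of both arrays at 100 µM lay outside the range of the other arrays, and that of array 1 at 200 µM within the range of the controls. Without array 1 at 100 µM, which had the narrowest spread of values over all genes, 6 members were called at 100 µM, and without array 2 at 100 µM 22 were.

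**Figure D4:**
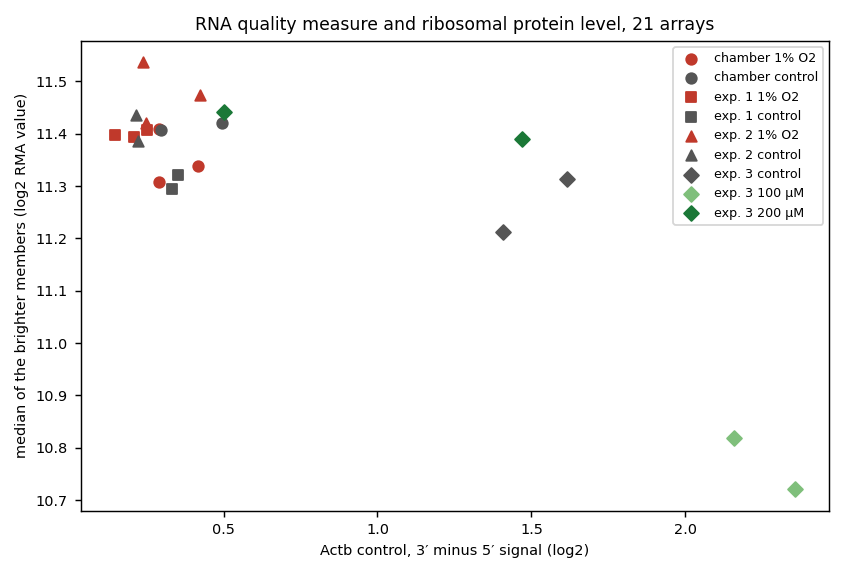
Median log2 RMA value of the 23 brighter members (vertical axis) against the Actb 3′ minus 5′ signal (horizontal axis, log2) on each of the 21 arrays; symbols mark the set and colours the treatment. The 2 arrays at 100 µM CoCl2 stand apart at the lower right, at 10.72 and 10.82, while the other 19 arrays lie between 11.21 and 11.54.

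The controls of experiment 3 were themselves unlike the other controls in some members. For Rpl10a, Rpl41, Rps18, Rps27, Rps3 and Rps7 both were below all 6 controls of the hypoxia sets, and for Rpl7, Rpl8, Rps10 and Rps28 both were above them. Among all genes, 16.5% were below and 20.6% above in this way. For Rps7 the controls of experiment 3 were 10.45 and 11.27, and those of the hypoxia sets lay between 11.75 and 11.86, so that its values at 200 µM, 11.29 and 11.87, reach the level of those other controls. For Rps3 the other controls lay between 11.68 and 11.94, and its values at 200 µM were 11.48 and 11.97. Whether the sets were processed alike was not tested, and each difference above is within its own set.

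Ribosomal protein symbols that share a probe set with another symbol were kept out of the 35 but were fitted with them. There are 33 such symbols on 31 probe sets, and no value is given by name because a set cannot be assigned to 1 gene. At 1% oxygen, 0 of the 31 sets were called in the mean of the 3 sets in limma, against 32.0% of all genes, with a median of 0.05. At 100 µM CoCl2, 1 was called higher and 13 lower (median -0.29), against 17.6% and 20.7% of all genes. At 200 µM 15 were called higher and 0 lower (median 0.33), against 19.7% and 22.3% of all genes. The step between the doses was called higher in 17 sets and lower in 0, against 7.83% and 8.85% of all genes, with a median of 0.41. They come from the same arrays as the 35 and are no independent support.

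Over the mean of both doses, 6 members were called higher and 4 lower, against 46.3% of all genes. Without control array 1 the number called was 6, and without array 2 at 100 µM it was 18. Rpl13a was higher by 0.96 ± 0.13, Rps27 by 0.72 ± 0.12, Rps13 by 0.47 ± 0.10 and Rps29 by 0.42 ± 0.13 (SE), and both paralogs Rpl39l (0.35) and Rps4l (0.32) were called higher. The members called lower were Rpl7l1 (-1.06 ± 0.18), Rpl8 (-0.72 ± 0.16), Rps10 (-0.38 ± 0.12) and Rps3a1 (-0.37 ± 0.10, SE). Of these 10, Rps10, Rps3a1, Rps29, Rpl39l and Rps4l lost the call without control array 1. Rps27l, a paralog induced by p53 in other cells, had 0.24 and was not called, and Rpl38, known for the translation of Hox mRNAs in mouse embryos, Rpsa and Rps19 were not called either, although a further, dim probe set of Rpl38 was called higher (0.34, adjusted p = 0.047). Fau, which carries the 40S protein eS30 behind a ubiquitin-like leader and lies outside the symbol rule, was higher by 0.51 ± 0.12 (adjusted p = 0.0012, limma), and at 1% oxygen it was 0.02 and not called. Of the 13 further TOP genes 3 were called higher and 4 lower in the CoCl2 mean, against 23.3% and 23.0% of all genes, a total share near that of all genes. Nap1l1 (-1.01), Eef1d (-0.88) and Pabpc1 (-0.80) changed the most.

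CoCl2 and hypoxia were set against each other as a difference of differences, each within its own controls. In 7 members the mean CoCl2 difference and the mean hypoxia difference were unlike, 3 higher and 4 lower in CoCl2, against 25.4% of all genes. Without control array 1 of experiment 3, 2 members were called, without control array 2, 4, without array 2 at 100 µM, 14, and without array 2 at 200 µM, 12. Rps27 (0.66 ± 0.14), Rpl13a (0.63 ± 0.15) and Rps13 (0.38 ± 0.12) were higher in CoCl2 than in hypoxia. Rpl8 (-0.61 ± 0.19), Rpl22 (-0.58 ± 0.15), Rps10 (-0.41 ± 0.14) and Rps3a1 (-0.41 ± 0.12, SE) were lower. Of the 7, Rpl13a alone kept its call without control array 1 of experiment 3 (adjusted p = 0.026, limma). For Rpl22 this was a difference of 0.55 in hypoxia and -0.03 in CoCl2, where its log2 RMA values were 6.48 and 6.44 in the controls, 6.32 and 6.26 at 100 µM, and 6.29 and 6.85 at 200 µM. With the mean of both probe sets the difference of Rpl22 between CoCl2 and hypoxia was -0.17 and not called. The further probe set of Rpl22 did not share this pattern: it had 0.35 and was called higher at 100 µM. Rpl7l1 fell in both, by 0.60 in the hypoxia mean and by 1.06 in the CoCl2 mean, and the difference between these, -0.46, was not called.

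The probe set chosen mattered for several genes. Rps28, a 40S protein at the mRNA exit, was followed by a set that matches a sequence family and had log2 differences of 0.14 at 100 µM and 0.01 at 200 µM, neither called. A further Rps28 set had -0.63 ± 0.19 at 100 µM and 0.66 ± 0.19 at 200 µM and was called at both. Rps4x, an X-linked 40S protein, had -0.16 and 0.10 in the set used and was called at neither dose. Another further set of Rps28 was called higher at 200 µM (0.50), as was a further set of Rps4l (0.39). Of the 4 further sets of Rps4x, all with low means, 3 were called higher at 100 µM, by 0.54 to 1.35. A further set of Rpl19 had 0.14 at 100 µM and was not called, where the set used was called lower, and a further set of Rps29 was called higher at 100 µM (0.53) and not at 200 µM (0.43). None of these further sets was called over the 3 hypoxia sets. Rpl11, Rplp2, Rps27a and Rack1 were not analysed here.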

How the data were processed

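The authors deposited log2 RMA values for 12488 probe sets on 21 arrays, 1 value per array. Per the submitters' processing notes, GCOS 1.2 and RMA were used. The RMA version is not given in the sources used here, nor whether all arrays were run together. The 66 control sets (AFFX) were left out, and probe sets were named through GEO's platform annotation, 10833 with 1 gene and 396 with several, which name no gene here. The set with the highest mean stood for each gene, giving 8251 genes. Every column belonged to a sample (0 without one). An array has no read depth, so the number of arrays limits precision.

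All 9 groups entered 1 limma 3.58.1 fit in R 4.3.3 (lmFit and eBayes, two-sided, 12 residual degrees of freedom, 20.9 after moderation), with Benjamini-Hochberg adjustment over all genes and a threshold of 0.05; the steps were checked on simulated data. Controls whose titles carry no experiment number were taken as the controls of the chamber arrays, whose titles carry none either. The members and all gene lists were chosen with earlier results of these data known. Named members were, in the hypoxia mean and the CoCl2 mean, up to 6 called each way, and in every other comparison up to 4 each way, along with a set list of well-known genes, the paralogs, up to 3 genes of each further list and probe sets that disagree; others were named after their values were seen. Replicate numbers were not treated as pairs, since same-numbered arrays did not deviate together (residual correlations from -0.37 to 0.235). Alternatives were other array scaling, filters, probe sets, weights, moderation and array choices, an Actb covariate, the replicate block and leaving out each array.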

Additional observations from a re-analysis of the deposited data

Results flagged for a closer look

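Results are given here where limma called the step between the CoCl2 doses, or a difference between differences (adjusted p under 0.05). All groups hold 2 or 3 arrays, so single arrays were not tested for standing apart from their group.

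Between 200 µM and 100 µM CoCl2, 11 members differed, all higher at the higher dose. The log2 step was 1.35 for Rps7, 1.35 for Rpl10a, 0.91 for Rps18, 0.86 for Rps3 and 0.62 for Rpl8. It was 0.60 for Rpl13a, 0.54 for Rpl6, 0.53 for Rpl37a, 0.52 for Rps27, 0.47 for Rps3a1 and 0.33 for Rpl7a. With the Actb gap between 3′ and 5′ signal as a covariate 0 of the 11 steps were called, the median step of the members was 0.20 (0.28 without it), and 154 of all 8251 genes were called, against 1376 without it. The part of RNA quality in these steps was not tested.

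Between CoCl2 and hypoxia, each against its own controls, 7 members differed. The difference was 0.66 for Rps27, 0.63 for Rpl13a and 0.38 for Rps13, higher in CoCl2. It was -0.61 for Rpl8, -0.58 for Rpl22, -0.41 for Rps10 and -0.41 for Rps3a1, lower in CoCl2. All 7 rest on the 2 controls of experiment 3, which stood apart from the 6 other controls for Rps27, Rpl8 and Rps10.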

How the results depend on the processing

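The number of members called in limma depended on the setting. With only the arrays of the sets compared, counts were 5 in the hypoxia mean (3 as reported), 6 in the chamber (2), 3 in experiment 2 (1), 4 at 100 µM (15), 4 at 200 µM (11), 3 in the CoCl2 mean (10), 2 in the dose step (11) and 3 in chamber minus incubator (0). Array weights gave 5 in the hypoxia mean, 9 in the chamber, 4 in experiment 2, 7 at 100 µM, 4 in the dose step and 5 in chamber minus incubator. The Actb covariate gave 3 in experiment 2, 4 at 100 µM, 0 in the dose step and 2 in chamber minus incubator. Quantile normalisation gave 5 in the hypoxia mean, 3 in experiment 1 (5) and 2 in experiment 2. Centring on array medians gave 1 in the chamber and 2 in experiment 2. The filter at the 40th percentile, which kept 25 of the 35 members and removed Rpl7l1, gave 1 in the chamber, 2 in experiment 2 and 7 at 200 µM. Testing every probe set gave 1 in the chamber, and a variance trend with robust moderation 2 in experiment 2. Chosen after seeing the data, leaving out array 1 of both the 100 µM arrays and the controls of experiment 3 gave 5 in the hypoxia mean, 2 in experiment 2, 6 at 100 µM, 6 in the CoCl2 mean, 6 in the dose step, 2 in chamber minus incubator and 3 in CoCl2 minus hypoxia (7). With each of the 21 arrays left out in turn, counts ran from 3 to 5 in the hypoxia mean, 1 to 2 in the chamber, 2 to 5 in experiment 1, 0 to 2 in experiment 2, 6 to 22 at 100 µM, 7 to 14 at 200 µM, 6 to 18 in the CoCl2 mean, 7 to 15 in the dose step, 0 to 2 in chamber minus incubator, 0 to 0 between experiments 1 and 2, and 2 to 14 in CoCl2 minus hypoxia. With the replicate number as a block, counts in the same order were 3, 2, 4, 1, 13, 12, 12, 11, 0, 0 and 7. That block was common to all sets and is not a pairing of arrays within each set. Of 44 values of named members in a comparison, 16 kept their side of the threshold under every setting and left-out array they were fitted in, and 0 changed sign; Rpl7l1, among them, was not in the fit with the filter. The cause of these shifts was not tested. Groups of 2 or 3 arrays, a single probe set for most members and bright sets near the top of the scale limit what can be seen.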

Other observations

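In CoCl2 the genes that assemble ribosomes were mostly lower, as at 1% oxygen. Over the mean of both doses, 1 of 43 ribosome biogenesis factors was called higher and 29 lower in limma, with a median log2 difference of -0.64, against 0.12 for all genes, of which 23.3% were called higher and 23.0% lower. Nop56, the core of the methylating small nucleolar RNPs, was at -2.17, Nhp2, part of those that make pseudouridine, at -1.81 and Rrp1b at -1.58, while Sbds, which readies the 60S subunit for joining, was called higher at 0.99. Of 61 mitochondrial ribosomal proteins 4 were called higher and 30 lower (median -0.38), with Mrpl52 at -1.33, Mrpl36 at -1.28 and Mrpl28 at -1.27. Of 14 genes of the RNA polymerase I machinery, 2 were called higher and 6 lower, with Polr1e at -1.01. Of 20 regulators of mTORC1 and MYC, 7 were called higher and 5 lower, the lower ones near the share of all genes. Mxi1 was at 1.77, Ddit4 at 1.51 and Eif4ebp2, a repressor of translation that mTORC1 inactivates, at -1.34. Myc itself was called lower in CoCl2, at -0.85 ± 0.14, and higher at 1% oxygen, at 0.71 ± 0.09 (SE). These lists were written with results of the same arrays known, and RNA quality moved with the CoCl2 arrays as given above, with its part in these counts not tested.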
